A study of Mus musculus with 4 samples.

Results

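The genes described here are 35 lysosomal genes, chosen by function: membrane proteins, cathepsins and other proteases, glycosidases, lipid-handling proteins, a transcription factor and a channel, and the proton pump. A gene was read on its brightest probe set, the group of array probes that measures it. The annotation paired 34 of the 35 genes with 59 of the 22690 probe sets, and Cd63 was not analysed here. All 34 stood above the background floor, a signal of 33.3, on at least 1 array, as did 9473 of the 12393 genes named in the series. On all 4 arrays 33 of them did, Tfeb being the exception.

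The series holds 4 arrays of CD11c+ dendritic cells of IL10-/- mice, by their label, after 6 h with SEA/LPS, with LPS, with SEA or in media alone. Each group has 1 array, so no difference has a replicate check, a p-value or an SD, and 4 arrays set the limit of precision. All groups share the Il10 deficiency and, per the labels, the same lot. Nothing in the labels tells how the cells were grown, the doses, or how many animals or cultures gave RNA. LPS is the bacterial lipopolysaccharide sensed through TLR4. SEA is not spelled out in the labels. In bulk RNA, fewer cells of a type and less RNA per cell cannot be told apart.

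Lysosomes are acidic organelles that break down proteins, lipids and sugars. A proton pump, the V-type ATPase, acidifies them, and most of their hydrolases work only at low pH. In dendritic cells the same compartments cut antigen into peptides for MHC class II, and cathepsin S removes most of the invariant chain that blocks the class II groove. Many lysosomal genes carry near their start site an E-box element with the core CACGTG, to which the transcription factor TFEB and its relatives bind.

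That element was searched in the RefSeq windows of build GRCm38.p6, which run 250 bases before to 50 bases after a start site. Windows were held for 30 of the 35 genes, and a gene with several windows counted as matched if any matched. The core CACGTG stood in 11 of the 30, or 36.7%, against 8.09% of all 27025 genes with a window. The flanked form TCACGTG, on either strand, stood in 10 of the 30, against 4.29% of all genes. The fuller palindrome TCACGTGA, which contains both shorter forms, stood in 6 of 30 (1.12% of all genes) and its variant TCATGTGA, on either strand, in 4 of 30 (1.15%). A match describes letters only and does not show a binding site.

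The stretches below are a selection from the genes with the flanked element, and show bases before the start site only. Atp6v0d1, Glb1 and Gaa also hold the element and are not shown. Ctsd holds a further match at base -245 and Ctsa a further one just after the start site, both outside the stretches shown. Capitals mark TCACGTG, its reverse complement and the 8-base variant. Each runs 5′ to 3′ along the gene's own strand.
Lamp1 (chr8:13159084-13159160, plus strand, 4 marked runs): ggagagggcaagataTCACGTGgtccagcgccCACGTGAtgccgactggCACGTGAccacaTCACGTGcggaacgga
Gla (chrX:134601178-134601248, minus strand, 3 marked runs): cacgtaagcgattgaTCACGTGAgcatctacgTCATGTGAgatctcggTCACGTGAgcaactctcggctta
Mcoln1 (chr8:3500432-3500495, plus strand, 2 marked runs): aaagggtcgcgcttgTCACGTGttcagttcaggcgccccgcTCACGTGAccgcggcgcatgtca
Ctsd (chr7:142387904-142387941, minus strand): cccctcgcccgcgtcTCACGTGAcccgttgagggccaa
Atp6v1a (chr16:44139369-44139406, minus strand): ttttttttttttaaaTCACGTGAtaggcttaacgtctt
Ctsa (chr2:164833745-164833772, plus strand): acaatgagcaaactgTCACGTGAtgcag
Lgmn (chr12:102439121-102439157, minus strand): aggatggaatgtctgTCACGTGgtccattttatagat

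In Lamp1, the gene of the main lysosomal membrane glycoprotein, the 4 runs lie within the last 77 bases before the start site. Lipa and Ctsz, whose LPS differences with and without SEA are set side by side below, held no CACGTG in their windows. Their last 120 bases before the start site are shown, with nothing to mark. The core stood in 11 of the 30 genes with a window, so lacking it does not set these genes apart.
Lipa (chr19:34527475-34527594, minus strand): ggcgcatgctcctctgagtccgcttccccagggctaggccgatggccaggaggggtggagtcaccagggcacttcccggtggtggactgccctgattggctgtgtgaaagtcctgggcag
Ctsz (chr2:174439040-174439159, minus strand): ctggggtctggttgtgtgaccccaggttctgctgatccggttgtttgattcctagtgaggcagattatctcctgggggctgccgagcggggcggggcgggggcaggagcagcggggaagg

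The arrays had equal trimmed means, and 57.3% to 61.1% of probe sets lay above the floor, the fewest with SEA/LPS. The Gapdh 3′ to 5′ ratio, a sign of RNA integrity, was 3.12 with SEA/LPS, 2.42 with LPS, 2.69 with SEA and 2.21 in media. The same ratio for Actb was 1.26 with SEA/LPS, 1.24 with LPS, 1.37 with SEA and 1.20 in media, so the highest array differed. The part of these gaps in the differences below was not tested. Il10 read 93.0 with SEA/LPS, 304 with LPS, 52.1 with SEA and 37.9 in media; every group carries the deficiency, so this is no check between groups. All 10 LPS response genes listed were at least 2-fold higher with LPS than in media, against 6.06% of all genes. Their list was made with earlier results of these data known, so it is no independent check. For SEA/LPS over SEA 9 of the 10 were at least 2-fold higher (4.67% of all genes). For SEA/LPS over LPS all 10 were below 0 (50.6% of all genes), with 4 at least 2-fold lower (3.47% of all genes). Of 11 dendritic cell markers 10 stood above the floor with SEA/LPS and 11 on each other array. All 6 macrophage markers, among them Lyz2, Csf1r and Adgre1, stood above it on every array too, with summed signals of 21883 with SEA/LPS, 21675 with LPS, 19594 with SEA and 17480 in media. Of the gap between LPS and media in this sum, Cd14, an LPS co-receptor, made the most. It read 4499.5 with SEA/LPS, 5401 with LPS, 3112 with SEA and 1559 in media. For LPS over media 4 of the 6 macrophage markers were above 0 and 2 below it, with a median of 0.23. Cd14 (1.79), Fcgr1 (0.62), Mertk (0.29) and Lyz2 (0.18) were above, and Csf1r (-0.32) and Adgre1 (-0.13) below. The dendritic cell markers summed to 18602 with SEA/LPS, 24730.5 with LPS, 20557 with SEA and 20095 in media. For LPS over media 8 of these 11 were below 0 (53.3% of all genes), with a median of -0.39. Only Cd74, H2-Ab1 and Irf8 were above 0. Dendritic cells share several of the macrophage markers, and the part of macrophages in the lysosomal signals was not tested. Of the T cell markers 1 of 6 and of the granulocyte markers 4 of 6 passed the floor on any array. So did 2 of 4 B cell, 3 of 3 NK cell and 2 of 5 mast cell and basophil markers. Of the stromal markers 2 of 4 did, and of the red cell precursor markers 1 of 2. The highest of these signals was 130.5, for the stromal marker Col1a2 with SEA.

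**Figure D1:**
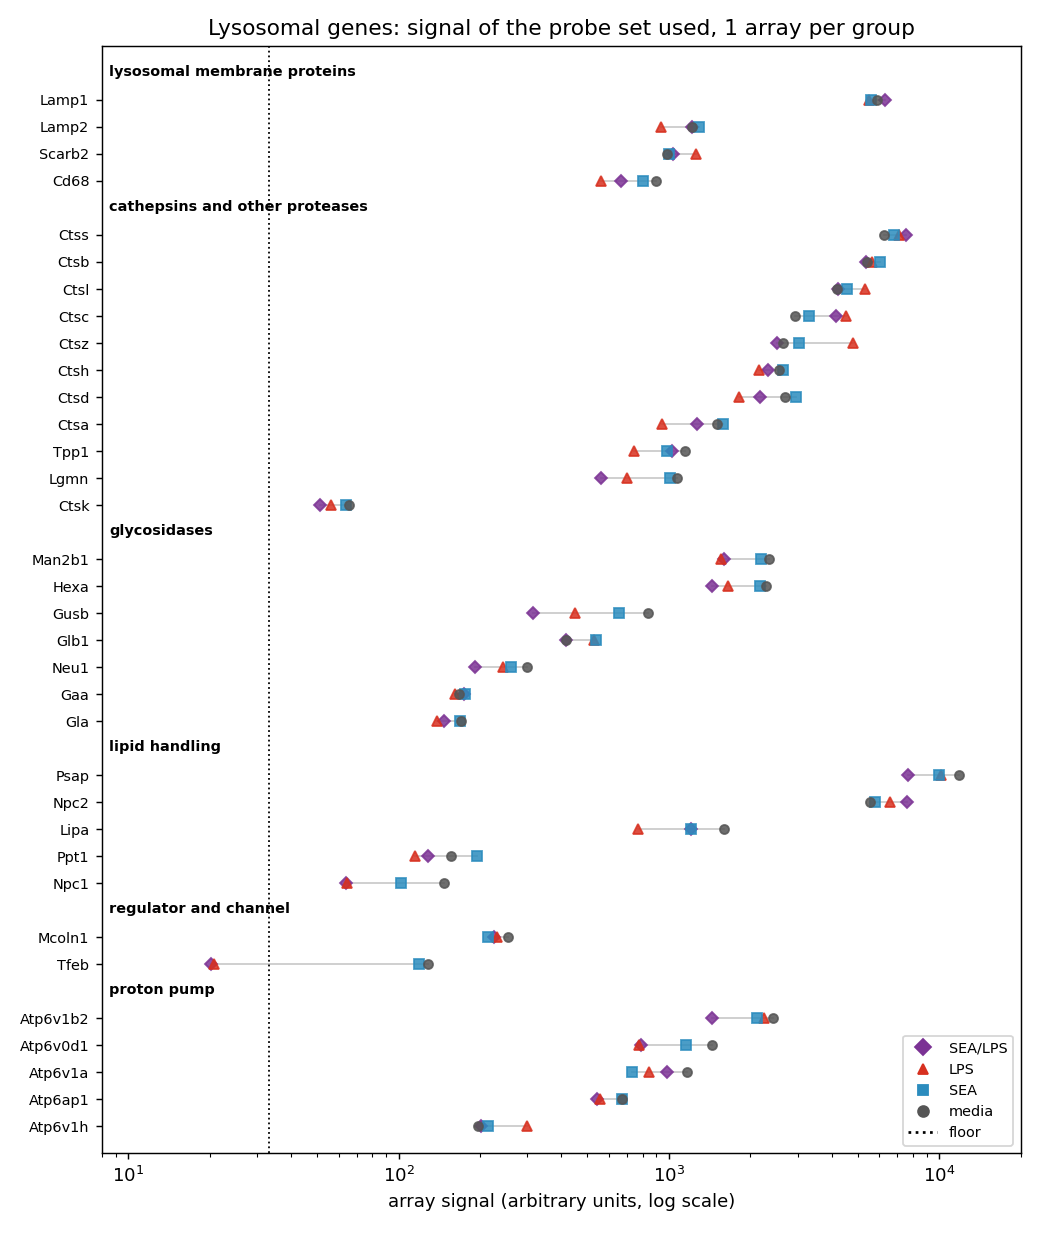
Signal of each of the 34 measured lysosomal genes on its brightest probe set (x axis, log scale, arbitrary units), with 1 point per array and the dotted line at the floor of 33.3. The 4 points of most genes lie close together, Tfeb falls under the floor with SEA/LPS and with LPS, and levels cannot be compared between genes.

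Few lysosomal genes differed by 2-fold between the 4 conditions. The highest and lowest arrays lay under 1.5-fold apart for 14 of the 34 genes, between 1.5-fold and 2-fold for 16, and at least 2-fold apart for 4, namely Tfeb, Gusb, Npc1 and Lipa. Over all genes 24.9% were at least 2-fold apart. The media array gave the highest signal of 17 of the 34 genes, or 50%, against 28.4% of all genes. The lowest signal fell on the LPS array for 13 (38.2%, against 32.3% of all genes) and on the SEA/LPS array for 12 (35.3%, against 32.3%).

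LPS over media asks how the bacterial stimulus alone altered these transcripts. None of the 34 was at least 2-fold higher with LPS and 3 were at least 2-fold lower: Tfeb, Npc1 and Lipa. Among all 9473 genes the share past 2-fold was 6.06% on the high side and 8.43% on the low side. At 1.5-fold, 3 lysosomal genes were higher (14.1% of all genes) and 10 lower (21.0% of all genes). In all, 25 of the 34 were below 0, against 53.3% of all genes, and their median log2 difference was -0.28, against -0.06 over all genes. The count depended on scaling: 22 were below 0 with arrays scaled to the 75th percentile (median -0.14, against 0.02 over all genes) and 31 with scaling to the hybridisation controls (median -0.83, against -0.56 over all genes). Under the last, Ctsb, Ctsl, Ctss, Npc2, Glb1 and Scarb2 lay below 0 instead of above it, and Ctsz, Ctsc and Atp6v1h stayed above; under the 75th percentile, Lamp1, Gaa and Atp6v1b2 lay above 0 instead of below. Quantile normalization put Ctsb and Ctss below 0 and Gaa above it. Lysosomal genes were mostly bright, so the 2161 genes with a mean signal of at least 289 were also taken as a background. On the scaling as deposited, 17 of the 25 lysosomal genes among these bright genes were below 0. Of all 2161 bright genes 58.4% were.

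SEA/LPS over SEA asks the same of cells that also met SEA, on the other 2 arrays. Tfeb and Gusb were at least 2-fold lower with SEA/LPS (6.38% of all genes) and none of the 34 was at least 2-fold higher (4.67% of all genes). At 1.5-fold, 6 were lower and 0 higher, against 20.4% and 9.45% of all genes. As with LPS alone, 25 were below 0, but so were 61.8% of all genes, and the median of -0.27 stood beside -0.15 over all genes. Of the 25 bright lysosomal genes 17 were below 0, against 53.8% of the 2161 bright genes. Scaled to the 75th percentile, the split was 18 below 0 and 16 above (median -0.07, against 0.00 over all genes), and scaled to the hybridisation controls it was 31 below and 3 above. The 2 LPS comparisons share no array: 20 genes were below 0 in both and 4 above 0 in both, or 58.8% and 11.8% of the 34, against 41.0% and 21.1% of all genes. Tfeb, Npc1, Gusb and Lgmn were at least 1.5-fold lower in both, or 11.8% of the 34 against 9.45% of all genes. Across the 34 genes the 2 sets of differences had a Pearson correlation of 0.64, and across all genes of 0.68; genes of one array share its scaling, so this is a description.

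**Figure D2:**
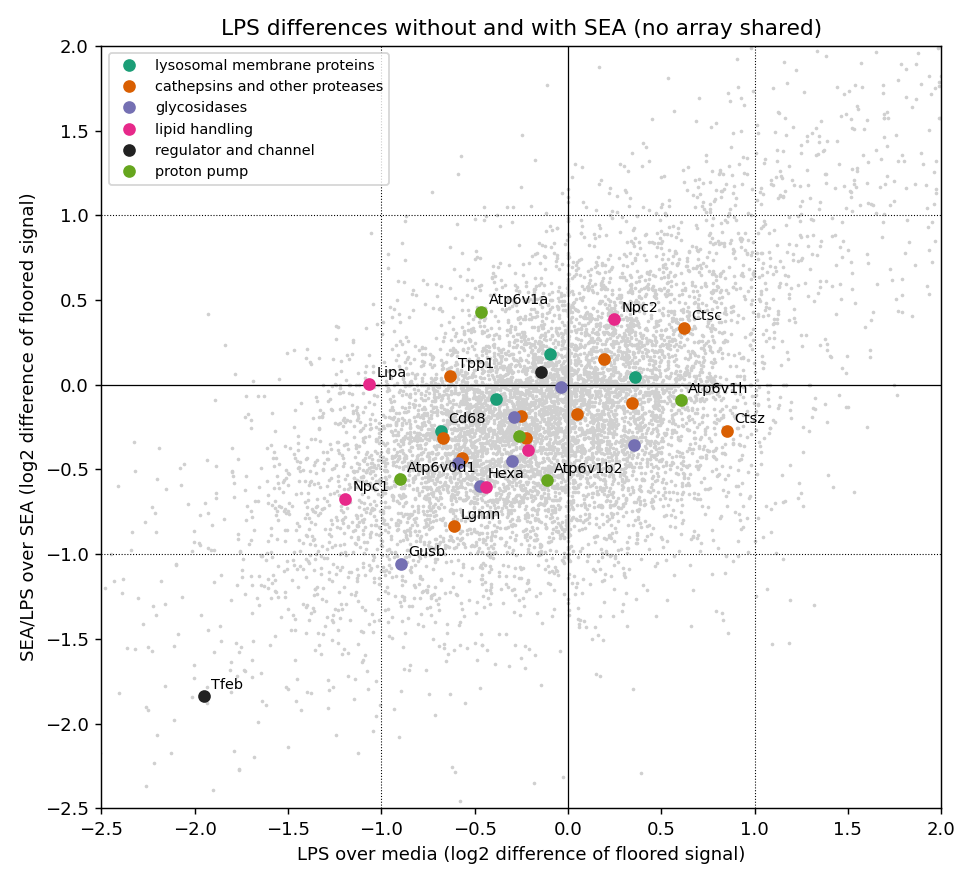
Log2 difference of LPS over media (x axis) against that of SEA/LPS over SEA (y axis), with lysosomal genes coloured by role, all measured genes in grey and dotted lines at 2-fold. Tfeb, a bound on both axes, lies lowest at -1.95 and -1.84; Lipa lies at -1.06 and 0.00 and Ctsz at 0.85 and -0.27.

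The regulator came first by size. Tfeb encodes the transcription factor that switches on lysosomal and autophagy genes. Its signal was 20.3 with SEA/LPS, 20.8 with LPS, 119 with SEA and 129 in media. The pair of arrays with LPS lay under the floor and the pair without LPS lay well above it. Tfeb was thus at least 3.86-fold lower with LPS than in media and at least 3.57-fold lower with SEA/LPS than with SEA. It has 1 probe set here, and with the floor at percentile 60 the bounds shrank to -0.77 and -0.66 log2. Mcoln1, the lysosomal calcium channel TRPML1 and a gene with 2 marked runs above, read 226 with SEA/LPS, 231 with LPS, 214 with SEA and 255 in media. Its other probe set disagreed, with 172 with SEA/LPS, 279.7 with LPS, 216 with SEA and 204 in media. LPS over media was -0.14 on the first and 0.46 on the other, so no direction can be given for Mcoln1.

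Lipid-handling genes were split. Lipa encodes lysosomal acid lipase, which frees cholesterol and fatty acids from lipoprotein lipids. It read 1206 with SEA/LPS, 767 with LPS, 1204 with SEA and 1605 in media. The LPS array was lowest, and the SEA/LPS array stood level with the SEA array. Lipa was 2.09-fold lower with LPS than in media (-1.06 log2), while SEA/LPS over SEA was 0.00 and SEA/LPS over LPS was 0.65. Both further probe sets of Lipa were also lowest with LPS and highest in media: LPS over media was -1.07 and -1.30, and SEA/LPS over SEA 0.18 and -0.03. Scaled to the 75th percentile, Lipa stood at -0.93 for LPS over media. Scaled to the hybridisation controls, SEA/LPS over SEA was -0.22.

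Npc1, the membrane protein that exports cholesterol from lysosomes, read 64.1 with SEA/LPS, 64.3 with LPS, 102 with SEA and 147 in media. Both arrays with LPS were lower than both without it. The difference was -1.19 for LPS over media and -0.67 for SEA/LPS over SEA, on 1 dim probe set. Its soluble partner Npc2, which hands cholesterol to NPC1, pointed the other way, with 7593 with SEA/LPS, 6581 with LPS, 5812 with SEA and 5535 in media. Its difference was 0.25 for LPS over media and 0.39 for SEA/LPS over SEA, and a second probe set gave 0.43 and 0.46. Scaling to the hybridisation controls lowers the LPS array by 0.55 log2 relative to media, and the LPS value of Npc2 was then -0.30.

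Psap, the precursor of the saposins that help degrade sphingolipids, read 7674 with SEA/LPS, 10172 with LPS, 10016 with SEA and 11819 in media. Its SEA/LPS array was the lowest, at -0.38 over SEA and -0.41 over LPS. The second Psap probe set gave -0.60 and -0.95 for these and 0.37 for LPS over media, where the one used gave -0.22. Ppt1, which removes palmitate from proteins, was 1.35-fold lower with LPS than in media and 1.52-fold lower with SEA/LPS than with SEA on the probe set used. The other Ppt1 probe set gave -1.09 for LPS over media and 0.00 for SEA/LPS over SEA, the pattern seen for Lipa.

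Of the 11 proteases 5 were above 0 for LPS over media and 6 were below it, with a median of -0.22. Those above 0 were cysteine cathepsins, but the cysteine cathepsins Ctsh (-0.25) and Ctsk (-0.22) were below it. Scaled to the hybridisation controls, Ctsb, Ctsl and Ctss were below 0 too. Among all genes 53.3% were below 0 and the median was -0.06. Ctss, the invariant chain protease, read 7543 with SEA/LPS, 7126 with LPS, 6788 with SEA and 6232 in media. The 3 stimulated arrays lay above media, within 1.21-fold, but with quantile normalization SEA and LPS lay below it. Ctsb, a broad lysosomal protease, read 5373 with SEA/LPS, 5627 with LPS, 6066 with SEA and 5432 in media, a range of 1.13-fold. Its 3 further probe sets gave LPS over media between -0.91 and -0.39, so the flat reading comes from the brightest probe set alone.

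Ctsc encodes the dipeptidyl peptidase that activates granule proteases. Its signal was 4170.2 with SEA/LPS, 4515 with LPS, 3301 with SEA and 2932 in media, so both arrays with LPS were higher than both without. The difference was 0.62 for LPS over media and 0.34 for SEA/LPS over SEA, on 1 probe set. Scaled to the hybridisation controls, these shrank to 0.07 and 0.11. Ctsl, which acts on the invariant chain in thymic epithelium, was 0.35 over media with LPS and -0.11 over SEA with SEA/LPS.

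Ctsz, which encodes the carboxypeptidase cathepsin Z, was the member highest with LPS relative to media. It read 2507 with SEA/LPS, 4788 with LPS, 3024 with SEA and 2652 in media. The LPS array alone stood apart. Ctsz was 1.81-fold higher with LPS than in media, and its SEA/LPS signal was 1.91-fold below that with LPS. Over SEA, SEA/LPS read -0.27. The IDs of its 3 probe sets carry suffixes for probes that can match more than 1 transcript. The other 2 gave 0.65 and 0.49 for LPS over media, and -1.03 and -0.55 for SEA/LPS over LPS.

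Several other proteases had lower signals with LPS. Ctsd, the aspartic cathepsin, read 2178 with SEA/LPS, 1821 with LPS, 2944 with SEA and 2700.0 in media. Ctsa, a carboxypeptidase that also protects the galactosidase and sialidase complex, read 1275 with SEA/LPS, 947 with LPS, 1583 with SEA and 1507 in media. In both genes the 2 arrays with LPS lay below the 2 without it, and SEA/LPS lay above LPS. LPS over media was -0.57 for Ctsd and -0.67 for Ctsa.

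Lgmn, the asparagine-specific endopeptidase legumain, read 564 with SEA/LPS, 701 with LPS, 1006 with SEA and 1072 in media. It was 1.53-fold lower with LPS than in media and 1.79-fold lower with SEA/LPS than with SEA. Tpp1, a tripeptidyl peptidase, read 1026 with SEA/LPS, 742 with LPS, 989 with SEA and 1148 in media. Like Lipa, it was lowest with LPS alone (-0.63) and level between SEA/LPS and SEA (0.05), and on its other probe set the LPS signal was lowest too, with -0.03 for SEA/LPS over SEA. Ctsh, an aminopeptidase, ranged over 1.23-fold, and Ctsk, the bone matrix cathepsin, read between 51.2 and 65.6, close to the floor.

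**Figure D3:**
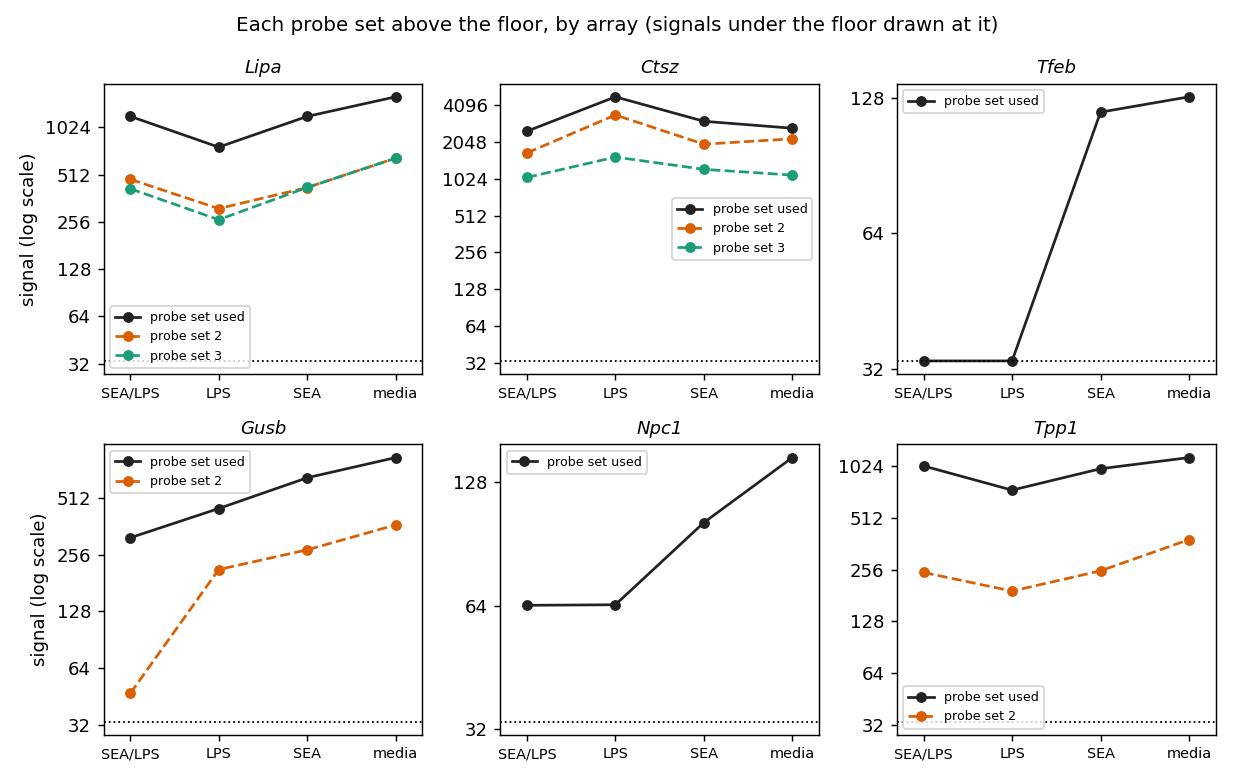
Signal (y axis, log scale) on each array for every probe set above the floor of 6 lysosomal genes; solid lines mark the probe set used, lines only join points of 1 probe set, and signals under the floor are drawn at it. All 3 Lipa probe sets are lowest with LPS and all 3 Ctsz probe sets highest with LPS.

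Glycosidases leaned lower with LPS, with 6 of 7 below 0 over media, against 53.3% of all genes. For SEA/LPS over SEA 7 of 7 were below 0, against 61.8% of all genes. In that comparison Gla and Gaa lay above 0 under the 75th percentile and quantile scalings. The medians were -0.30 and -0.45, against -0.06 and -0.15 over all genes. Gusb, the beta-glucuronidase, read 314 with SEA/LPS, 449 with LPS, 654 with SEA and 837 in media. Each array with LPS lay below each array without it. Gusb was 1.86-fold lower with LPS than in media and 2.08-fold lower with SEA/LPS than with SEA. Its other probe set gave -0.79 and -2.53, the last resting on a signal of 47.0 with SEA/LPS.

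Hexa, a subunit of beta-hexosaminidase, read 1442 with SEA/LPS, 1659 with LPS, 2180.0 with SEA and 2297 in media. Man2b1, the lysosomal alpha-mannosidase, read 1597 with SEA/LPS, 1553 with LPS, 2199.7 with SEA and 2338 in media. Both had lower signals on both arrays with LPS, at -0.47 and -0.59 over media. Neu1, the lysosomal sialidase, was -0.30 with LPS over media and -0.45 with SEA/LPS over SEA. Gla and Gaa, the alpha-galactosidase and acid alpha-glucosidase, stayed within 1.22-fold and 1.09-fold over the 4 arrays on the probe sets used. The other Gaa probe set was highest in media, with LPS over media at -0.38 and SEA/LPS over SEA at -0.36. Glb1, the beta-galactosidase, was 0.36 over media with LPS and 0.37 with SEA, but its SEA/LPS signal of 418 was level with 415 in media.

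Membrane proteins showed small differences. Lamp1 read 6330.2 with SEA/LPS, 5506 with LPS, 5588 with SEA and 5877 in media, a range of 1.15-fold. Lamp2, its partner glycoprotein, read 1221 with SEA/LPS, 933 with LPS, 1297 with SEA and 1220.3 in media. Its 4 probe sets did not share a direction with LPS, ranging between -0.43 and 0.38 over media. They were all above 0 for SEA/LPS over LPS, between 0.16 and 0.73. Cd68, the macrophage and dendritic cell member of the LAMP family, read 666 with SEA/LPS, 561 with LPS, 804 with SEA and 899.8 in media, or -0.68 with LPS over media. Scarb2, the receptor that carries glucocerebrosidase to lysosomes, was 0.36 with LPS over media on the probe set used and -0.14 on the other.

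Proton pump subunits differed in pattern. Atp6v0d1, a subunit of the membrane sector, read 787 with SEA/LPS, 773 with LPS, 1159.9 with SEA and 1444 in media. It was 1.87-fold lower with LPS than in media and 1.47-fold lower with SEA/LPS than with SEA. Atp6v1b2, a subunit of the catalytic sector, read 1439.8 with SEA/LPS, 2245 with LPS, 2128 with SEA and 2429.8 in media, so the SEA/LPS array alone was low. Its difference was -0.64 for SEA/LPS over LPS, and -1.20 on its second probe set. Atp6v1a, the catalytic subunit, read 984 with SEA/LPS, 842 with LPS, 729.8 with SEA and 1163 in media, lowest with SEA. Its other probe set was lowest with LPS instead, with 394 with SEA/LPS, 296 with LPS, 330.0 with SEA and 365 in media. Atp6v1h, a regulatory subunit, was 0.60 with LPS over media and -0.57 with SEA/LPS over LPS. Scaled to the hybridisation controls, these were 0.05 and -0.33. Atp6ap1, an accessory protein, stayed within 1.23-fold.

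SEA over media asks what SEA did without LPS. None of the 34 genes was at least 2-fold higher or lower, and 0.644% and 0.633% of all genes were. At 1.5-fold, 0 were higher (5.09% of all genes) and 1 was lower, Atp6v1a at -0.67 (4.01% of all genes). Its second probe set gave -0.15. Of the 34, 18 were below 0, against 45.5% of all genes, and the median was -0.03, against 0.00 over all genes. Of the 25 bright lysosomal genes 12 were below 0, against 49.4% of the 2161 bright genes. Scaled to the hybridisation controls, 24 were below 0 and 10 above (median -0.11, against -0.06 over all genes). After Atp6v1a the lowest were Npc1 at -0.53 and Lipa at -0.41, where the further probe sets of Lipa both gave -0.62. The highest were Glb1 at 0.37 and Ppt1 at 0.33, and the other Ppt1 probe set gave -0.40. The 4 probe sets of Ctsb did not share a direction, at 0.16, -0.19, -0.42 and -0.20.

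The SEA/LPS and LPS arrays show how SEA altered cells that also met LPS. No lysosomal gene was at least 2-fold higher (1.39% of all genes) or lower (3.47% of all genes). At 1.5-fold, Lipa was higher at 0.65 (7.76% of all genes), and Ctsz at -0.93 and Atp6v1b2 at -0.64 were lower (13.4% of all genes). Of the 34, 17 were below 0 and 16 above it, against 50.6% of all genes below 0, and the median was near 0, against -0.01 over all genes. Of the 25 bright lysosomal genes 12 were below 0, against 37.8% of the 2161 bright genes. Scaled to the hybridisation controls, 10 were below 0 and 23 above (median 0.22, against 0.11 over all genes). Tpp1 (0.47), Ctsa (0.43) and Lamp2 (0.39) followed Lipa on the high side. Atp6v1h (-0.57), Gusb (-0.52) and Psap (-0.41) followed on the low side. SEA over media and SEA/LPS over LPS share no array, and across the 34 genes their Pearson correlation was -0.16.

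As a description, the LPS difference with SEA minus that without SEA was 1.07 log2 for Lipa and -1.12 for Ctsz. Of the 7142 genes above the floor on all arrays 2.95% were at 1 or more and 5.91% at -1 or less. Among the 33 lysosomal genes of these, only Lipa was at 1 or more and only Ctsz at -1 or less. Such counts lie near or under the shares over all genes. On the further probe sets the value was 1.25 and 1.27 for Lipa and -0.88 and -0.71 for Ctsz. Scaling to the hybridisation controls gave 1.39 for Lipa and -0.80 for Ctsz, and took Atp6v1a to 1.22 and Tpp1 to 1.01. Further probe sets of Gusb (-1.74), Atp6v1b2 (-1.33) and Ppt1 (1.09) were past 1 where those used were not. On the probe sets used, Atp6v1a came next at 0.90, then Glb1 at -0.71 and Atp6v1h at -0.70; for the other 29 genes the value lay nearer to 0.

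Genes with the palindrome or its variant in their window were set beside those without. Of the 9 genes with TCACGTGA or TCATGTGA, 8 were below 0 for LPS over media with a median of -0.46, and of the 20 measured genes with a window but neither motif 14 were below 0 with a median of -0.24. For SEA/LPS over LPS 1 of the 9 was below 0 (median 0.16), as were 12 of the 20 (median -0.12). For SEA/LPS over SEA the contrast ran the other way: 5 of the 9 were below 0 (median -0.19), and 15 of the 20 (median -0.29). Among all genes 53.3%, 50.6% and 61.8% were below 0 for these comparisons, in that order. With the shorter TCACGTG the gaps between medians were smaller. For LPS over media 9 of 10 genes with it were below 0 (median -0.38), as were 13 of 19 without it (median -0.30). For SEA/LPS over LPS the counts were 3 of 10 (median 0.10) and 10 of 19 (median -0.04). For SEA/LPS over SEA they were 7 of 10 (median -0.25) and 13 of 19 (median -0.27). These are counts over genes of the same arrays, the motifs were chosen after values were seen, and no test was made. Lipa, Tfeb, Gusb and Ctsz, which differed most, held neither motif; Npc1 had no window in the table.

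**Figure D4:**
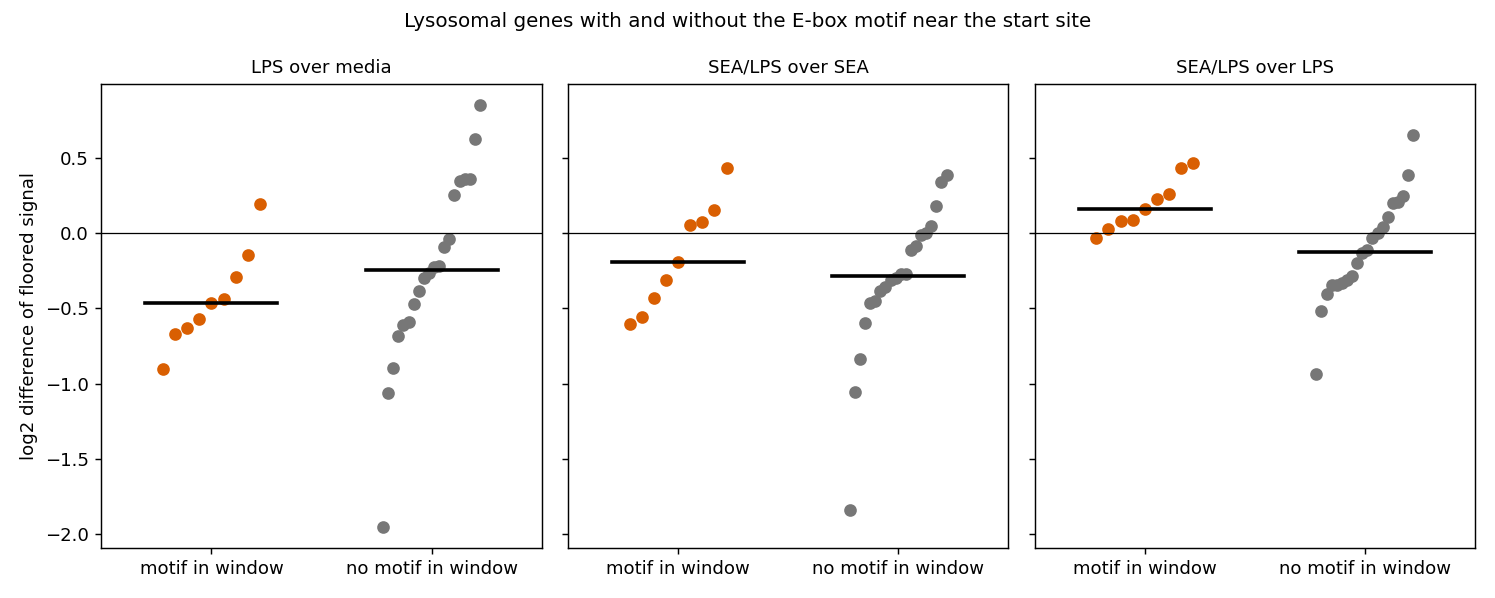
Log2 difference of LPS over media (left), SEA/LPS over SEA (middle) and SEA/LPS over LPS (right) for the lysosomal genes with TCACGTGA or TCATGTGA in the promoter window (9 genes) and without either (20 genes); points are genes and bars are medians. With the motif 8 of 9 genes lie below 0 on the left, 5 of 9 in the middle and 1 of 9 on the right.

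Other genes of the lysosome, drawn from lists of known function, showed where larger differences lay. Of 17 further lysosomal hydrolases measured, 3 were at least 2-fold lower with LPS than in media and 1 higher (8.43% and 6.06% of all genes), with a median of -0.40, against -0.06 over all genes. Scaled to the 75th percentile the median was -0.26, and to the hybridisation controls -0.95. The lowest was Pla2g15, a lysosomal phospholipase, with 110.4 with SEA/LPS, 76.3 with LPS, 246 with SEA and 346 in media (LPS over media -2.18, SEA/LPS over SEA -1.16). Galc, the galactosylceramidase (-1.22), and Manba, the beta-mannosidase (-1.06), were the others. The further Galc probe sets were dim and gave -0.98 and 0.07 for LPS over media, and 0.00 and -0.14 for SEA/LPS over SEA. Acp5, an acid phosphatase of macrophages and osteoclasts, was higher (1.10). For SEA/LPS over SEA, Galc, Pla2g15 and Sgsh, the sulfamidase (-1.04), were at least 2-fold lower (6.38% of all genes). None of the 17 was at least 2-fold higher (4.67% of all genes). The other Sgsh probe set gave -0.12.

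Of 9 measured relatives of Tfeb and nutrient-signalling genes, 1 was at least 2-fold lower with LPS than in media (8.43% of all genes). None was at least 2-fold higher (6.06% of all genes). The lower one was Tfec, a relative of Tfeb found in macrophages. It read 330 with SEA/LPS, 121 with LPS, 345 with SEA and 373 in media. Only the LPS array was low: LPS over media was -1.63 and SEA/LPS over LPS was 1.45, while SEA/LPS and SEA differed by -0.06, on 1 probe set. Flcn, which acts on nutrient signalling, was -1.41 for SEA/LPS over SEA, and its other probe set gave 0.16.

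Of 16 lysosomal membrane transporters and channels, 1 was at least 2-fold higher with LPS than in media (6.06% of all genes). Another 2 were at least 2-fold lower (8.43% of all genes). The higher one was Slc15a3, a peptide and histidine transporter. It read 2388 with SEA/LPS, 5041 with LPS, 2121 with SEA and 1791 in media, so SEA/LPS over LPS was -1.08. Tpcn1, a lysosomal ion channel (-3.14), and Slc15a4, another peptide and histidine transporter (-1.25), were lower with LPS than in media. The further Tpcn1 probe sets were dim and gave -0.47 and -0.68. Clcn7, the chloride exchanger, was -1.15 with SEA over media on 1 probe set and 0.19 on another. The median was 0.09 for LPS over media.

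Of 11 further proton pump subunits, Tcirg1, a subunit of the membrane sector, read 395 with SEA/LPS, 1268 with LPS, 779 with SEA and 775 in media. It was the only one past 2-fold in any comparison, at -1.68 for SEA/LPS over LPS (3.47% of all genes at least 2-fold lower). Over all genes 24.9% were at least 2-fold apart between their highest and lowest arrays. Of 7 mannose 6-phosphate sorting genes Gga1, a sorting adaptor, lay under the floor with SEA/LPS alone. It was at least 3.83-fold below LPS and at least 3.42-fold below SEA. Over all genes 3.47% and 6.38% were at least 2-fold lower in these comparisons. Of 3 cystatins measured, Cst7, an inhibitor of cysteine proteases, lay under the floor on both arrays without LPS. It was at least 2.91-fold higher with LPS than in media, and SEA/LPS was at least 2.25-fold above SEA. Over all genes 6.06% and 4.67% were at least 2-fold higher in these comparisons.

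Autophagy genes had a median of -0.42 for LPS over media and 15 of 18 below 0. None was at least 2-fold higher (6.06% of all genes) or lower (8.43% of all genes). Over all genes the median was -0.06 and 53.3% were below 0. Scaled to the 75th percentile 13 were below 0 (median -0.28), and to the hybridisation controls 17 (median -0.97). Sqstm1, the cargo receptor p62, read 2830 with SEA/LPS, 5803 with LPS, 2825 with SEA and 3119 in media. The LPS array alone was high, as for Ctsz, and SEA/LPS over LPS was -1.04. Becn1, an autophagy initiation gene, was -1.67 for SEA/LPS over LPS and -1.36 for SEA/LPS over SEA, and its 3 further probe sets gave between -0.77 and -0.50 for SEA/LPS over LPS.

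How far 1 probe set can be trusted was gauged from genes with several. Of the 16 lysosomal genes with at least 2 probe sets above the floor, all probe sets pointed one way in 5 for SEA over media, in 10 for LPS over media (8 lower, 2 higher), in 12 when SEA/LPS was set over LPS and in 11 when it was set over SEA. The median gap between the 2 brightest probe sets of these genes was 0.35 log2 for LPS over media and 0.29 for SEA over media. It was 0.34 for SEA/LPS over LPS and 0.21 for SEA/LPS over SEA. Over all 3311 genes with 2 such probe sets the gaps were 0.39, 0.29, 0.34 and 0.31, in that order. Most lysosomal differences for SEA over media and for SEA/LPS over LPS were smaller than the gap of the same comparison. The median lysosomal difference for LPS over media, -0.28, was also smaller in size than its gap.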

How the data were processed

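Per the labels, total RNA of 4 samples was measured, 1 array per group. The deposited table of the whole series holds a linear intensity for 22690 probe sets per array. Judged from the values, the authors had scaled each array to a 2% trimmed mean of 150.1; which software did this, and with what background step, no label or header states. The platform annotation gave 20380 probe sets 1 gene symbol, 691 several and 1555 none (64 were controls), and symbols were updated through Entrez identifiers (20351 matched, GRCm38.p6, names and RefSeq sequences).

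A floor was placed at the 40th percentile of all 4 arrays together (33.3), and lower signals took that value before log2. The probe set with the highest mean was used per gene. Differences count by size (2-fold, brighter array above the floor), since 1 array per group allows no test. A difference against the floor is written as at least N-fold. The functions were tested on simulated data. Alternatives covered scaling, floor, probe set choice and fold. Members, role groups and lists were chosen with earlier results of these data known. All members are accounted for; the 4 signals are given for each member past 2-fold and the 2 brightest of each role group, and further members were given them after their values were seen. Genes of the other lysosomal and autophagy lists are named where past 2-fold; marker lists are given by counts and sums, with a few markers named after their values were seen. Python 3.11.15, pandas 2.3.3 and numpy 2.4.6 were used.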

Additional observations from a re-analysis of the deposited data

Results flagged for a closer look

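On the probe sets used and the scaling as deposited, Lipa and Ctsz were the lysosomal genes whose LPS difference changed by at least 2-fold, in log2 by 1 or more, between cells with and without SEA. Over all 7142 genes above the floor on every array, 2.95% passed that size upwards and 5.91% downwards. Among the 33 lysosomal genes of these, Lipa alone passed upwards and Ctsz alone downwards, near or under those shares. For Lipa the LPS difference was 0.00 with SEA and -1.06 without it, and the first minus the second was 1.07. For Ctsz it was -0.27 with SEA and 0.85 without it, and the first minus the second was -1.12. With 1 array per group the difference between the 2 settings was not tested. All 3 probe sets of each gene gave the same sign. The choice of genes depends on the processing: with scaling to the hybridisation controls Ctsz stood at -0.80 and Atp6v1a (1.22) and Tpp1 (1.01) passed, with quantile normalization Lipa stood at 0.997, and with the mean over probe sets Ctsz stood at -0.91. Further probe sets of Gusb (-1.74), Atp6v1b2 (-1.33) and Ppt1 (1.09) passed too.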

How the results depend on the processing

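No paired analysis was possible because each group has 1 array and the labels carry no replicate numbers. For LPS over media, the 3 genes at least 2-fold lower became 13 with scaling to the hybridisation controls, 1 with the floor at percentile 60, 10 at 1.5-fold and 1 at 3-fold, and the 0 higher became 3 at 1.5-fold. Its median of -0.28 became -0.14 with scaling to the 75th percentile, -0.83 with the hybridisation controls and -0.39 over the 25 genes kept with plain probe set IDs. For SEA/LPS over SEA, the 2 lower became 1 with the 75th percentile, the floor at percentile 60, a pseudocount of 32 in place of the floor or 3-fold, and 6 at 1.5-fold. Its median of -0.27 became -0.068 with the 75th percentile and -0.50 with the hybridisation controls. For SEA/LPS over LPS, the 0 lower became 1 (Gusb) with the mean over probe sets and 2 at 1.5-fold, the 0 higher became 1 at 1.5-fold, and the median became 0.22 with the hybridisation controls. For SEA over media, the 0 lower became 1 at 1.5-fold. Scalings move every gene of an array by construction; the cause of the other shifts was not tested.

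Of 464 recomputed values of 15 named genes, 451 kept their side of 2-fold, 6 passed 2-fold and 7 no longer did. Most of these values were under 2-fold as reported, so the 451 say little about the differences past it. As reported, only 3 values for LPS over media and 2 for SEA/LPS over SEA were past 2-fold. Each was recomputed under at most 8 settings, and all 7 losses fell among these. The sign turned in 37, all reported at a size of 0.25 log2 or less. Below 2-fold were Lipa with LPS at -0.93 (75th percentile), Npc1 with LPS at -0.97 (floor at percentile 60) and -0.90 (pseudocount), Gusb for SEA/LPS over SEA at -0.85 (75th percentile) and -0.99 (pseudocount), and Tfeb at -0.77 and -0.66 (floor at percentile 60). Tfeb, Npc1 and Ctsk are dim, so their differences rest on signals near the floor.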
